A study of Mus musculus with 6 samples.

Results

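The trypsinogen genes Prss1, Prss2, Prss3, Try4, Try5 and Try10 were followed in embryonic mouse pancreas with and without AMI-5, a small-molecule inhibitor of protein methyltransferases. They were picked by symbol, and these 6 of the 49671 genes in the table were all among the 17519 with enough reads to be tested. RNA came from pancreata of C57BL/6J mice at 14.5 dpc (days post coitum), when acinar cells are differentiating. There were 3 control libraries, whose own treatment is not given in the sources used here, and 3 libraries treated with AMI-5 at 10 µM, and no other agent or allele is named for either group. The labels do not say that samples of a group came from separate animals or cultures, so the p-values gauge no more than the scatter among these libraries, and that scatter could be technical. The labels tie an earlier version of the library kit to samples marked A. The control titles carry A and the AMI-5 titles Am, and if that mark means the controls, which the labels do not spell out, kit version and treatment cannot be told apart.

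Trypsinogens are the inactive precursors of trypsin, made by the acinar cells of the exocrine pancreas and stored in their secretory granules. In the gut, enteropeptidase cuts a short activation peptide off their front end, and the trypsin so formed activates the other pancreatic zymogens. Rodents carry many trypsinogen copies in tandem within the T cell receptor beta locus, some of them nearly identical.

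The 6 genes lie on chromosome 6 of mm10 (GRCm38) between bases 41302269 and 41525079, a stretch of 222811 bases, in the order Try4 (chr6:41302269-41305532, plus strand), Try5 (chr6:41311233-41316841, minus), Try10 (chr6:41354105-41357914, plus), Prss3 (chr6:41373814-41377678, minus), Prss1 (chr6:41458932-41463786, plus) and Prss2 (chr6:41521787-41525079, plus). Each encodes a coding sequence of 738 bases. The first 90 coding bases show how close the copies are, and they hold the signal peptide, the activation peptide and the start of the enzyme. Capitals mark bases that differ from Prss1 (coding exons, GENCODE M21 on mm10).
Prss1: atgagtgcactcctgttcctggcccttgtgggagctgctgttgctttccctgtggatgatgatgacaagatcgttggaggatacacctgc
Prss2: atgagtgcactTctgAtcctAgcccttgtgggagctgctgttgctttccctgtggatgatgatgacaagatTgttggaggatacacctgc
Prss3: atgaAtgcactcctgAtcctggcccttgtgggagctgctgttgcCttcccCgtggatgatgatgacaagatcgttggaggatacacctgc
Try4: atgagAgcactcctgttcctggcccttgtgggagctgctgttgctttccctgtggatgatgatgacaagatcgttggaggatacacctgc
Try5: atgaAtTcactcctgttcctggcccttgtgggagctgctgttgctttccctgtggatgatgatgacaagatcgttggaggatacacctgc
Try10: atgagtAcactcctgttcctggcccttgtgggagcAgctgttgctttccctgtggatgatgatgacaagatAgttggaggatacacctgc
All 6 hold the run gatgatgatgacaag from coding base 55, the codons just before the cut that frees trypsin. Over these 90 bases they differed from Prss1 at 1 base (Try4) to 4 bases (Prss2 and Prss3).

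Over the whole coding sequence Prss2 was the most distant copy, with 88.62% to 91.73% identity to the other 5 members. Try4 and Try5 were 97.43% identical, with 19 differing bases, and Prss1 and Prss3 were 96.34% identical, with 27. Closer copies lay outside the list: Prss3 differed from Gm10334 at 7 coding bases (99.05% identity) and Prss1 from Gm5771 at 15 (97.96%). The sequence that a read can share was measured as the percent of a transcript's 50-base windows also found in another annotated gene, and it was 7.83% for Prss2, 40.8% for Try10, 47.6% for Try5, 54.9% for Prss1, 65.6% for Try4 and 66.1% for Prss3. How reads that fit several copies were counted is not given in the sources used here, so the counts are uncertain as to which copy they came from, least so for Prss2. The read length is not given either, and of 25-base windows Prss2 shared 31.9% with the other 11 genes.

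**Figure D1:**
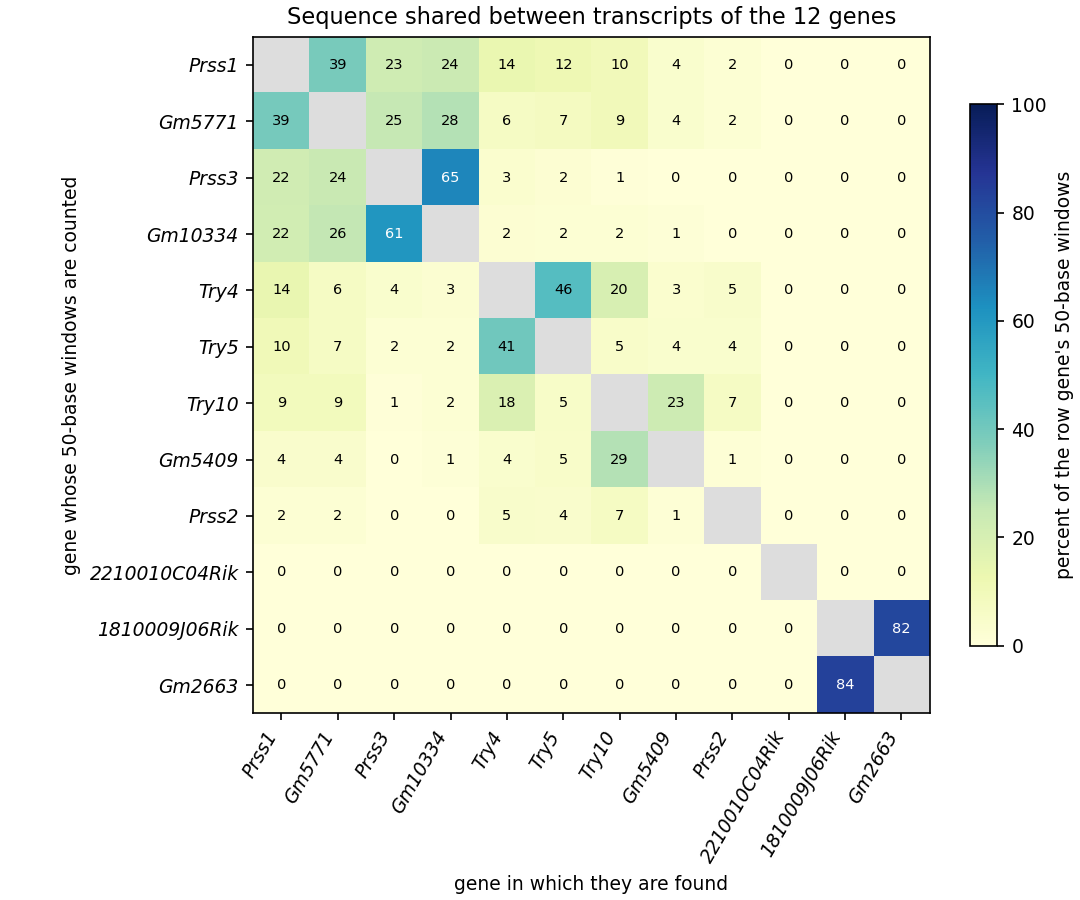
Percent of each gene's 50-base transcript windows (rows) that are also found in each other gene (columns), for the 6 trypsinogen and 6 trypsinogen-like genes. The strongest sharing among the members joins Try4 with Try5 (45.9% of Try4's windows), Prss3 shares 65.1% of its windows with Gm10334, and 2210010C04Rik shares none with the other 11.

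Gene counts summed to 12445425 to 13321899 in the controls and to 22894312 to 24805188 with AMI-5, and levels are given as CPM, counts set to 1 common library size by TMM scaling. Changes ran widely through these libraries: 27.5% of the genes tested were higher with AMI-5 and 26.6% lower at an adjusted p under 0.05 (edgeR), and the median log2 fold change of all genes was -0.0013. Processed pseudogenes, copies of mRNAs in the genome, took 0.390% ± 0.0175 (SD, n = 3) of control counts and 3.03% ± 0.122 of AMI-5 counts, and 1576 of 1679 tested were higher. With these pseudogenes left out, the members' log2 fold changes were 0.96 (Try10) to 3.62 (Prss2), beside 0.91 to 3.56 with them. Any part of the kit in the trypsinogen values was not tested. Control replicate 3 held the lowest level of all 6 members, and its acinar marker sum was also the lowest, at 37359 CPM against 50129 and 48590 in the other controls.

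Trypsinogen mRNA was higher with AMI-5. The 6 genes together summed to 2409 ± 631 CPM (SD, n = 3) in controls and 14126 ± 1205 with AMI-5, a 5.86-fold difference. As a share of all gene counts they took 0.283%, 0.281% and 0.178% in control replicates 1, 2 and 3, and 1.38%, 1.26% and 1.45% in AMI-5 replicates 1, 2 and 3. By edgeR's quasi-likelihood test with Benjamini-Hochberg adjustment over all genes, 5 of the 6 members were higher and 0 lower, against 27.5% of all genes tested that were higher. Prss1 and Try10, however, turned negative when trends with GC content and gene length, fitted over all genes, were removed. The trends were those of each library's log2 CPM relative to the gene's mean over the libraries. Prss2, Try4 and Try5 were called under each of 18 alternatives (other scalings, filters and tests, trend removal and left-out libraries). Of the protein-coding genes tested, 146 of 362 with at least 50% of their 50-base windows shared were higher. Among those with under 5% shared it was 2143 of 10915. The median log2 fold change of the 6 members was 2.08. In bulk RNA, more acinar cells and more trypsinogen RNA per acinar cell cannot be told apart.

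Prss2, which encodes anionic trypsin, had the highest fold change of the members. Its level was 575, 579 and 433 CPM in the 3 controls and 5975, 5922 and 6845 CPM with AMI-5. The lowest AMI-5 library stood far above the highest control. The log2 fold change was 3.56 (SE 0.13, adjusted p = 2.51e-08, edgeR), an 11.8-fold difference of the means, and it ranged from 1.92 to 3.63 over the alternatives.

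Try5 and Try4, a pair that shares much of its sequence, also rose. Try5, a trypsinogen on the minus strand, stood at 867, 765 and 616 CPM in controls and at 5045, 4398 and 5016 CPM with AMI-5. Its groups were well apart, with a log2 fold change of 2.69 with SE 0.13 (adjusted p = 3.69e-07, edgeR). Try4 had the lowest level of the 6, at 47.0, 47.1 and 24.8 CPM in controls and 389, 328 and 374 CPM with AMI-5. Its log2 fold change was 3.20 (SE 0.29, adjusted p = 0.000728, edgeR), and again each AMI-5 library was above each control. Since 45.9% of Try4's windows are also in Try5, the reads of both cannot be fully told apart. Summed over both genes the level was 789 ± 138 CPM (SD, n = 3) in controls and 5183 ± 397 with AMI-5, a 6.57-fold difference.

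Prss1 and Prss3, the pair of closest coding sequence to each other after Try4 and Try5, had smaller fold changes and a wide spread among the controls. Prss1, a trypsinogen encoded between Prss3 and Prss2, stood at 610, 616 and 242 CPM in controls and at 1510, 1103 and 1492 CPM with AMI-5. Control replicate 3 was far below the other controls, and the groups did not overlap. The log2 fold change was 1.48 (SE 0.44, adjusted p = 0.0485, edgeR), just inside the threshold of 0.05. Prss3 stood at 286, 267 and 106 CPM in controls and at 585, 471 and 772 CPM with AMI-5, and it too showed 1 low control and no overlap. Its log2 fold change of 1.47 with SE 0.47 (adjusted p = 0.0604, edgeR) did not pass the test. Without control replicate 3 the spread was smaller and both passed, with log2 fold changes of 1.16 for Prss1 (adjusted p = 0.0016) and 1.14 for Prss3 (adjusted p = 0.0293). Prss1 lost its call in the 5 fits that left out another library (adjusted p up to 0.123), and with GC and length trends over all genes removed the values were -0.15 for Prss1 and -0.089 for Prss3, neither of them called.

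Try10 had the smallest fold change of the members. It stood at 431, 455 and 262 CPM in controls and at 781, 628 and 746 CPM with AMI-5, so that the groups were apart by the distance between 455 and 628 CPM. The log2 fold change was 0.91 (SE 0.25, adjusted p = 0.0336, edgeR). It was 0.69 without control replicate 3 (adjusted p = 0.000126), it lost its call without control replicate 1 and without any 1 of the AMI-5 libraries (adjusted p up to 0.103), and it was -0.64 (adjusted p = 0.082) with trends over all genes removed.

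Every AMI-5 library lay above every control for 6 of the 6 members, which held for 31.3% of all genes tested, and the reverse held for 0 members and 30.6% of all genes. A call with a log2 fold change of at least 2 was made for 3 members (Prss2, Try4 and Try5), against 10.2% of all genes tested.

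**Figure D2:**
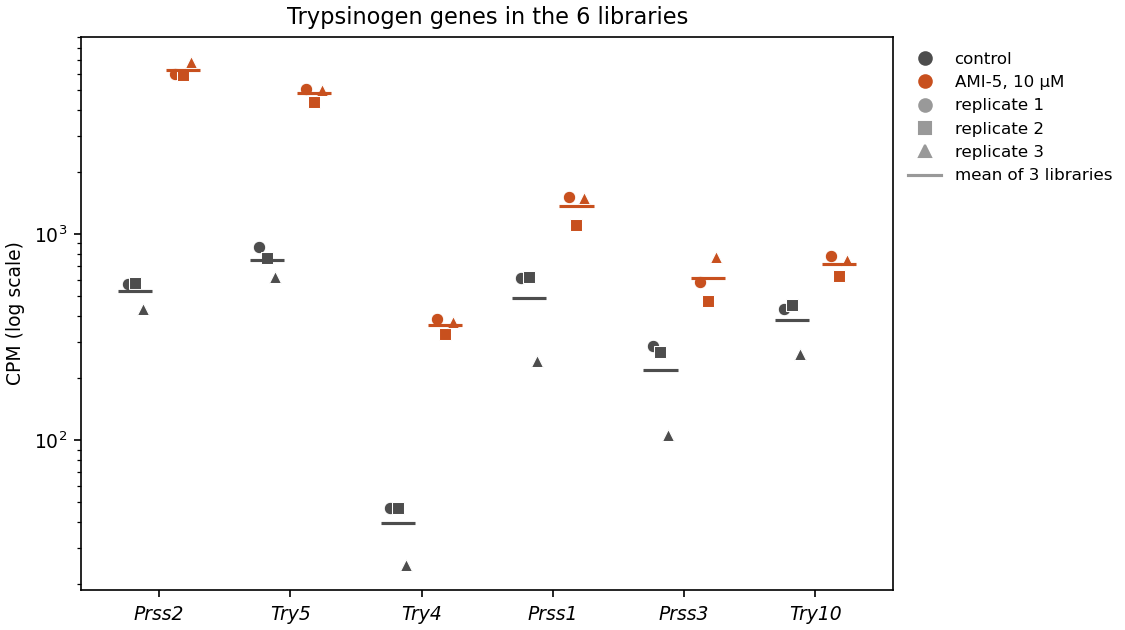
CPM (log scale) of each trypsinogen gene in the 3 control and 3 AMI-5 libraries, with a marker shape per replicate and a bar at each mean. Every AMI-5 library lies above every control for all 6 genes, Prss2 shows the widest gap, and control replicate 3 is lowest for each gene.

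The members took different shares of the trypsinogen transcripts in the 2 groups. Per kilobase of merged exons, the mean levels in controls were in the order Try5 (831 CPM per kb), Prss2 (649), Prss1 (608), Try10 (445), Prss3 (267) and Try4 (49.4). The ranges of neighbours in that order overlapped, except those of Prss3 and Try4, although within each control library Try5 lay above Prss2 and Try10 above Prss3. With AMI-5 the order was Prss2 (7665 CPM per kb), Try5 (5343), Prss1 (1700), Try10 (835), Prss3 (741) and Try4 (454), and of the neighbours only Try10 and Prss3 had overlapping ranges.

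Of the 6 genes' counts per base, Prss2 made up 21.2%, 21.96% and 26.9% in the controls and 43.4%, 47.7% and 46.4% with AMI-5. Try10 went the other way, from 15.05%, 16.3% and 15.4% to 5.37%, 4.79% and 4.80%, although its level was higher. Prss1 also took a smaller part, 20.5% ± 4.65 (SD, n = 3) in controls and 10.1% ± 1.06 with AMI-5, as did Prss3, with 8.99% ± 2.17 and 4.39% ± 0.729. Try4 took a larger part, 1.71% ± 0.132 in controls and 2.71% ± 0.147 with AMI-5, with the groups apart. Try5 made up 29.9% ± 4.25 and 31.95% ± 1.17, and its groups overlapped. These shares sum to a whole and so are not independent of each other.

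**Figure D3:**
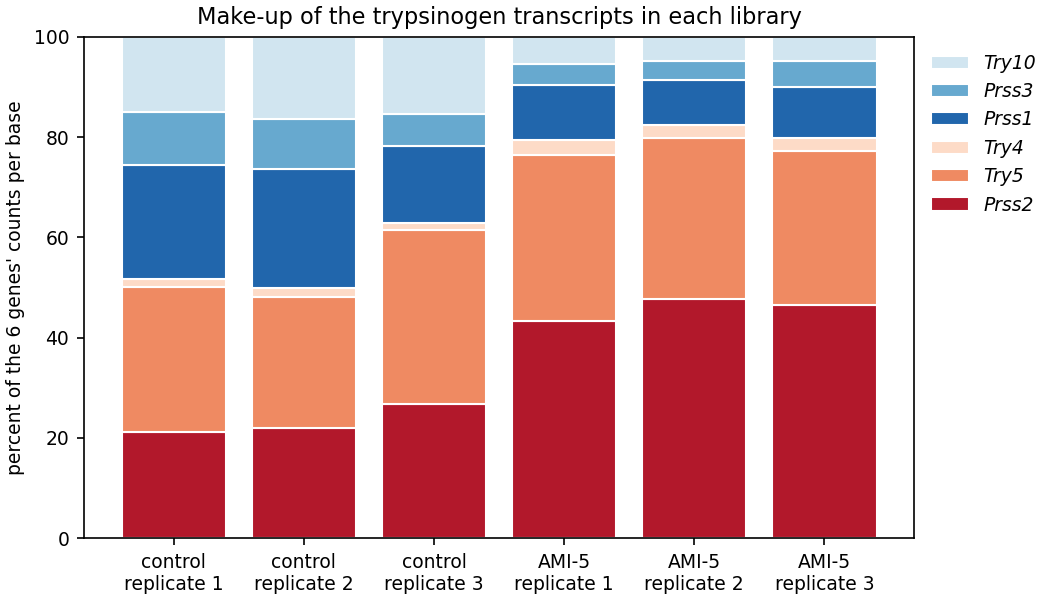
Percent of the 6 genes' counts per base that each trypsinogen gene takes, as 1 stacked bar per library. Prss2 grows from 21.2% to 26.9% in the controls to 43.4% to 47.7% with AMI-5, and Try10 and Prss1 shrink.

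Whether 2 members differed in their response was tested on their log2 ratio in each library, over the 15 pairs. The groups were apart for 13 pairs, each with an exact two-sided permutation p of 0.1, which is the smallest that 3 against 3 libraries can give, and 0.115 after adjustment over the 15 pairs, so that no pair could pass 0.05. The widest difference was between Prss2 and Try10, where the log2 ratio was 0.50 ± 0.20 (SD, n = 3) in controls and 3.12 ± 0.16 with AMI-5. That is a change in the log2 ratio of 2.63 (SE 0.15). Prss2 against Try5 changed by 0.87 (SE 0.09). The pairs that overlapped were Prss1 and Prss3, with a change of 0.018 (SE 0.13), and Prss2 and Try4, with 0.32 (SE 0.19). Because Prss1 and Prss3 share 22.6% of Prss1's windows, their like values are not independent.

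The annotation holds 6 further trypsinogen-like genes at the locus, among them Gm5409, an unprocessed pseudogene. Of these 6, 5 were higher and 0 lower, against 27.5% of all genes tested that were higher. With GC and length trends over all genes removed, 2 were higher and 2 lower. Their median log2 fold change was 1.94. 2210010C04Rik, a cationic trypsinogen upstream of Try4 (chr6:41030268-41035509, minus strand), shared no 50-base window with another gene and so had counts of its own. It stood at 428, 417 and 291 CPM in controls and at 3042, 2370 and 3235 CPM with AMI-5. The groups were far apart, with a log2 fold change of 2.93 with SE 0.21 (adjusted p = 0.000125, edgeR), and it was called under each of the 18 alternatives. Its front end differed from that of Prss1 at 22 bases of the 93 compared (capitals), 3 of them an inserted codon.
2210010C04Rik: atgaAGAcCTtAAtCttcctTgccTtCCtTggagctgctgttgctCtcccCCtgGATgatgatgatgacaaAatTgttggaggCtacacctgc
Its activation run, gatgatgatgacaaa, lay from coding base 58.

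The near copies of the members gave intermediate values. Gm5771, the near copy of Prss1, had a level of 268, 259 and 118 CPM in controls and 795, 621 and 852 CPM with AMI-5, with a log2 fold change of 1.82 with SE 0.39 (adjusted p = 0.018, edgeR). Its 735 coding bases lack 1 codon within the activation run, as its first 87 bases show (capitals mark differences from Prss1 outside that gap).
Gm5771: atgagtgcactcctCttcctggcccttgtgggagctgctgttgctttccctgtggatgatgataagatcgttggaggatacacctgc
Gm10334, the near copy of Prss3, had a log2 fold change of 2.07 with SE 0.46 (adjusted p = 0.0208, edgeR), from 75.5 CPM in controls to 317 CPM with AMI-5. Both had their lowest level in control replicate 3. Without AMI-5 replicate 1 or 3 both calls were lost, as was that of Gm10334 without control replicate 1 or 2 (adjusted p 0.0521 to 0.0618 over these fits). Both calls were also lost with the replicate block and with trends over all genes removed. Over all alternatives the lowest log2 fold change was 0.21 for Gm5771 and 0.56 for Gm10334. Prss1, Prss3, Gm5771 and Gm10334 summed to 1259, 1237 and 502 CPM in controls and to 3196, 2442 and 3516 CPM with AMI-5, a 3.05-fold difference in which reads moved between these 4 copies cancel out.

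Gm5409, between Gm5771 and Gm10334, is annotated as an unprocessed pseudogene and has no annotated coding sequence. It had 10, 16 and 9 reads in the controls and 1030, 866 and 1145 with AMI-5. Hardly any reads stood in the controls, and the log2 fold change was 5.65 (SE 0.17, adjusted p = 6.08e-11, edgeR). It shares 31.3% of its windows with another gene, mostly Try10, and the sum of Try10 and Gm5409 was 1.99-fold higher with AMI-5. 1810009J06Rik and Gm2663, which differ at 4 of 741 coding bases and lack the full activation run, were low: 1810009J06Rik had 7.02 CPM without and 13.1 CPM with the compound (log2 fold change 0.90, adjusted p = 0.00271, edgeR, and -0.96 with trends over all genes removed). Gm2663 had 47.3 and 34.5 CPM, its groups overlapped, and its value of -0.45 (adjusted p = 0.269, edgeR) did not pass, but it was called lower with trends over all genes removed (-2.34, adjusted p = 0.00327). 1810009J06Rik and Gm2663 share 679 windows of 50 bases, 81.5% and 83.5% of each, and their sum was 54.3 ± 12.97 CPM (SD, n = 3) in controls and 47.6 ± 12.6 with AMI-5, with overlapping groups.

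**Figure D4:**
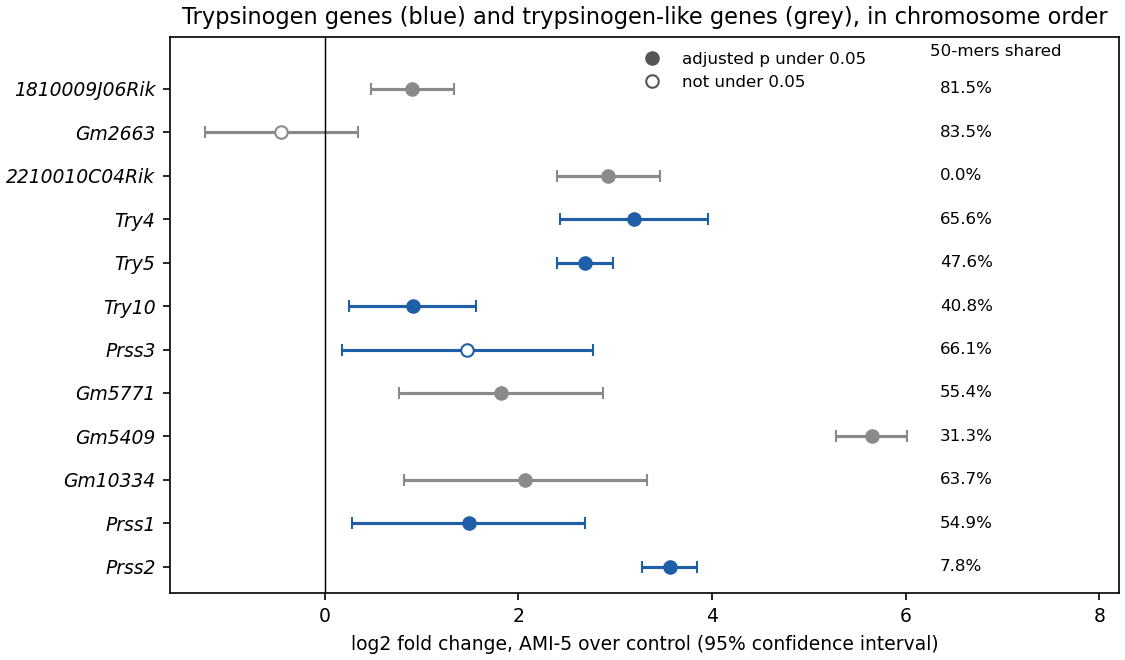
Log2 fold change of AMI-5 over control with its 95% confidence interval for the trypsinogen genes (blue) and trypsinogen-like genes (grey) in chromosome order, filled where the adjusted p was under 0.05, with the percent of 50-base windows shared with another gene. Gm5409 (5.65, 31.3% shared) lies highest, followed by Prss2 (3.56, 7.83%), Try4 (3.20, 65.6%) and 2210010C04Rik (2.93, 0%), and Gm2663 lies below 0. With trends over all genes removed, which is not drawn, Prss1, Prss3, Try10 and 1810009J06Rik also fell below 0.

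The start regions of these genes were compared as RefSeq promoter windows (GRCm38.p6), which the table used here holds for 8 of the 12 genes, the members Prss1, Prss2, Prss3 and Try4 among them. Searched over the 250 bases before the start were CACCTG, an E-box of the kind that the acinar factor PTF1 binds, CAGCTG, another E-box, and TTTCCC, the half-site of its RBPJ subunit, each on both strands, and TATAAA on the gene's own strand. None of these motifs overlaps another in its letters. CACCTG was in 8 of the 8 windows, against 17.2% of all 32851 windows of that length. TATAAA was in 8 of 8, against 7.59%. TTTCCC was in 4 of 8, Prss1 and Prss2 among them, against 21.9%, and CAGCTG was in 2 of 8, Prss3 among them, against 13%. The windows come from copied genes and are not independent, and a match is a run of letters, not a bound site. The 150 bases before the RefSeq start are shown for Prss2 and Try4, the members with the highest fold changes, and for Prss1, which changed less, with these motifs in capitals.
Prss1, chr6:41458780-41458929, plus strand: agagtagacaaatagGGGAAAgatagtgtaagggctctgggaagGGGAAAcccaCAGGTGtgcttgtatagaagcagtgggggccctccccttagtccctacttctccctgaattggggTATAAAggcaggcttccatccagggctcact
Prss2, chr6:41521626-41521775, plus strand: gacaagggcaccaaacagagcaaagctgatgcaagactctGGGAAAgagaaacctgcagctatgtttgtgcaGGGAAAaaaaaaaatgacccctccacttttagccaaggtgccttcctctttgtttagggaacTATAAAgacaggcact
Try4, chr6:41302122-41302271, plus strand: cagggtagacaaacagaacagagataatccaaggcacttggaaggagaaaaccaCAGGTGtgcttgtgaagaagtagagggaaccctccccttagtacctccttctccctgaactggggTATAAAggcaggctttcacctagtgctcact
In Prss2 the CACCTG match lay farther upstream, at base -169 from the start, and so outside the printed run, and in Try4 and Prss1 a match lay at base -96 on the other strand, printed as CAGGTG, just as TTTCCC on that strand is printed as GGGAAA.

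Of 8 genes that activate, inhibit, degrade or respond to trypsin, or act on the enzymes that do, 7 were tested, 4 were higher and 0 lower, against 27.5% and 26.6% of all genes tested. Their median log2 fold change was 0.65. With trends over all genes removed 1 was higher and 3 lower. Spink1, the trypsin inhibitor of the pancreas, stood at 280, 295 and 197 CPM in controls and at 497, 396 and 532 CPM with AMI-5. The groups were apart, and the log2 fold change was 0.88 (SE 0.20, adjusted p = 0.0135, edgeR), which turned to -1.81 with trends over all genes removed. Its call was also lost without AMI-5 replicate 1 (adjusted p = 0.0573), with the replicate block (adjusted p = 0.0776) and with trends fitted on unique-sequence genes, those with under 5% of windows shared (0.64, adjusted p = 0.055).

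Serpini2, a serine protease inhibitor of acinar cells, was higher by 1.51 (SE 0.24, adjusted p = 0.00542, edgeR), but by 0.0011, not called, with trends over all genes removed. Ctsb, cathepsin B, which can activate trypsinogen, was higher by 0.47 (SE 0.06), and Ctsl, cathepsin L, which can degrade it, by 0.65 (SE 0.06) and by 0.00026, not called, with trends over all genes removed. Ctrc, the chymotrypsin that degrades trypsinogen, stood at 7.75, 22.5 and 0.379 CPM in controls and at 60.8, 46.5 and 58.8 CPM with AMI-5. Its controls were widely scattered, and its log2 fold change of 2.42 with SE 0.90 (adjusted p = 0.0872, edgeR) passed only without control replicate 2 (3.77, adjusted p = 0.0419). Ctrc shares 17.7% of its 50-base windows with another gene, Ctsb 12.1% and Ctsl 26.3%. The annotated span of Ctrc holds that of Cela2a, a zymogen gene whose mean went from 699 CPM in controls to 4804 CPM with AMI-5. Any part of shared reads in these values was not tested. F2rl1, a receptor that trypsin cleaves, had a value of -0.25 (adjusted p = 0.0811, edgeR), and it was called lower under 5 alternatives: without control replicate 3, without AMI-5 replicate 3, with library totals alone, and with trends removed over all genes (-0.46, adjusted p = 0.00265) or on unique-sequence genes. Cst3, a cathepsin inhibitor, had 0.020 (adjusted p = 0.831, edgeR), a value whose sign changed with the scaling. Tmprss15, the enteropeptidase that starts activation, had 4 reads over the 6 libraries and was not tested.

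Among 15 further acinar zymogens and enzymes, 13 were higher and 0 lower, against 27.5% and 26.6% of all genes tested. The median log2 fold change was 1.56, beside 2.08 for the trypsinogens. With trends over all genes removed 8 were higher and 3 lower. Cela3a, an elastase, went from 0.572 ± 0.474 CPM (SD, n = 3) to 91.5 ± 15.4, a log2 fold change of 7.29. It had only 8, 14 and 1 reads in the controls, and it shares 34.2% of its 50-base windows with another gene. Pnliprp2 and Pnliprp1, lipase-related proteins, had 2.92 and 1.56, and Cel, bile salt-activated lipase, had 2.18. Ctrb1, a chymotrypsinogen and the most abundant of these genes, went from 38028 ± 5869 CPM to 69772 ± 9357, a log2 fold change of 0.88, or -0.42 with trends over all genes removed. These 5 values passed edgeR's test.

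Of 7 transcription factors that drive the acinar program, 1 was higher and 2 lower, which is near the 27.5% and 26.6% of all genes tested. Their median log2 fold change was -0.087. Ptf1a, the acinar-determining subunit of PTF1, stood at 85.4, 77.5 and 60.6 CPM in controls and at 68.4, 68.9 and 72.9 CPM with AMI-5, with overlapping groups (log2 fold change -0.09, adjusted p = 0.53, edgeR). It shares 35.4% of its 50-base windows with another gene. It was called lower without control replicate 3 (-0.22, adjusted p = 0.0206) and with trends over all genes removed (-0.77, adjusted p = 0.000321), and was 0.062, not called, with trends fitted on unique-sequence genes. Rbpjl, its acinar partner, had -0.54 (adjusted p = 0.0803, edgeR) and passed without control replicate 2 (-0.31, adjusted p = 0.0138) and with library totals alone (-0.63, adjusted p = 0.0413). Rbpj, the partner it replaces, was higher by 1.26 (SE 0.10), with 10.6% of its windows shared. Nr5a2 and Gata4, factors of acinar differentiation, were lower, with -0.40 and -0.36, but Gata4 was not called with trends removed (-0.030 over all genes, -0.19 on unique-sequence genes). Bhlha15 and Xbp1, factors of the secretory machinery, had 0.12 and 0.037 and were not called, but Bhlha15 was called higher without AMI-5 replicate 2 (0.23, adjusted p = 0.0294) and with trends removed (0.44 over all genes, 0.30 on unique-sequence genes).

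Markers of the cell types that pancreata can hold were summed beside these values. The 6 acinar markers, of which 4 are also in the zymogen list and 2 among the regulators, summed to 37359 to 50129 CPM in controls and 67861 to 88074 CPM with AMI-5. Their mean sum was 1.74-fold higher, beside 5.86-fold for the trypsinogens, and 3 of 6 were called higher, against 27.5% of all genes. Ctrb1 alone made up 38028 of the mean 45359 CPM in controls, and the log2 fold changes of the 6 ran from -0.54 (Rbpjl) to 0.96 (Pnlip). Pnlip had only 16, 10 and 5 reads in the controls and 34, 30 and 40 with AMI-5. Endocrine markers summed to 1.16-fold, duct and trunk markers to 1.12-fold, mesenchyme markers to 1.01-fold, endothelium markers to 0.906-fold and neural markers to 0.784-fold. Erythroid markers stood at 8.16 to 16.7 CPM in controls and 77.8 to 234 CPM with AMI-5, and 5 of 5 tested were higher, against 27.5% of all genes. The globin genes among them share 53.2% (Hbb-bs) to 89.3% (Hba-a2) of their 50-base windows with another gene, so their values are not independent. Leukocyte markers stood at 270.0 to 316 and 457 to 478 CPM, and 4 of 6 were higher, against the same 27.5%. Gut and liver markers stood at 389 to 446 CPM in controls and at 224, 249.1 and 1461 CPM with AMI-5. AMI-5 replicate 2 was the high library there, while its trypsinogen sum was the lowest of that group, at 12849 CPM. Markers of Paneth cells, gut cells that can express a trypsinogen, stood at 3.94 to 9.62 CPM in controls and 17.0 to 19.2 CPM with AMI-5. Of 3 tested 1 was higher, Lyz1, against 27.5% of all genes. Lyz1 had 2, 0 and 2 reads in the controls, and it shares 16.1% of its 50-base windows with another gene. Ang4 was at 0 in all 6 libraries, as was Pla2g2a, a gene that C57BL/6 mice are known to lack in working form. The part of these cell types in the trypsinogen values was not tested.

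The genes most like the trypsinogen sum across the 6 libraries, by Pearson's r of log2(CPM + 0.5) over 11696 genes with a mean of at least 5 CPM, were Lman1 (a cargo receptor of the endoplasmic reticulum), Tbc1d15, Smpdl3a, Ifrd1 and Rab27b (a small GTPase of secretory granules), each with r of 0.999 or more. Such r is a description over 6 libraries that share their 2 groups, and 87 of the genes ranked exceeded 0.99. The named genes had log2 fold changes of 0.41, 0.41, 0.93, 1.00 and 0.90, all smaller than the 2.55 of the trypsinogen sum. All were called, which follows largely from choosing them by likeness to a sum that differs between the groups.

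**Figure D5:**
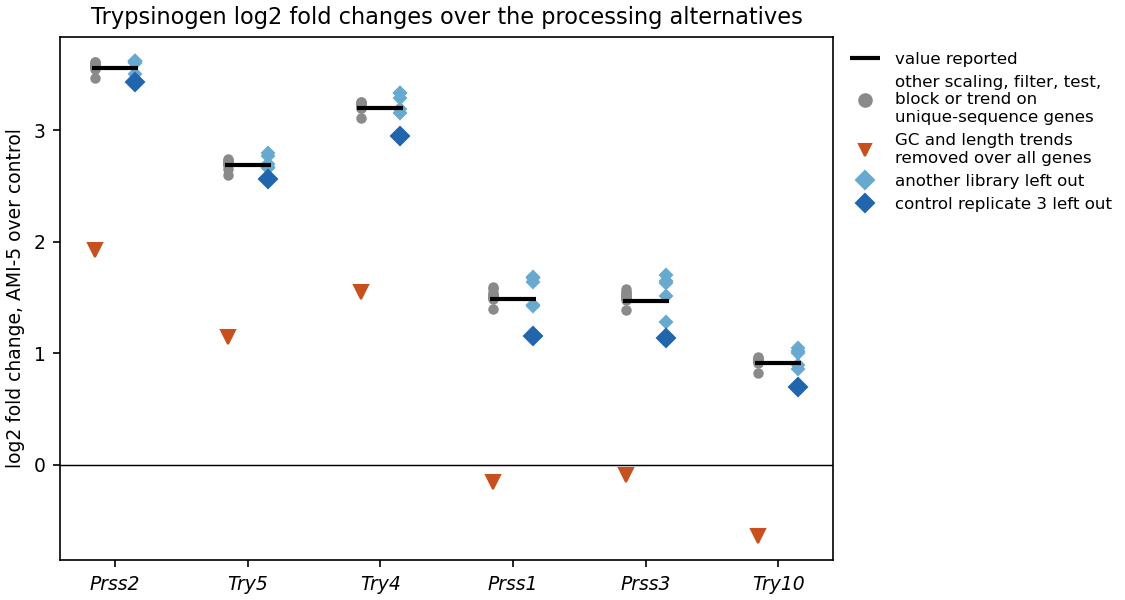
Log2 fold change of each trypsinogen gene as reported (black bar) and under the processing alternatives. Prss2, Try4 and Try5 stay above 1 throughout, while Prss1, Prss3 and Try10 fall below 0 where GC and length trends over all genes were removed and keep values near those reported where the trends were fitted on genes with under 5% of their windows shared.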

How the data were processed

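Read counts per gene, as the authors deposited them and not normalized, were used for 6 libraries of total RNA, whose columns carry the marks of the sample titles. The submitters' processing notes name mm10, bcl2fastq 2.19.1, the aligner GSNAP 2018-05-30 and the counter featureCounts 1.6.2. The table's annotation is Ensembl release 87, per the file headers. The strand setting of the counting and its handling of multi-mapping reads are not stated there, nor is the read length. The 92 spike-in sequences held 1 read and were left out.

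Identifiers were matched to GENCODE M21 on mm10 (49412 of 49671 genes, 99.81% of them at an overlapping position). The test was that of edgeR 4.0.16 in R 4.3.3 (TMM, filterByExpr, robust quasi-likelihood F test, two-sided, group as the only term), with Benjamini-Hochberg adjusted p under 0.05 as threshold. DESeq2 1.42.0 and limma 3.58.1 (voom) were alternatives. SE is the standard error of a log2 fold change, taken as its size divided by the square root of the test's F statistic. For pairs of members it is that of the difference in mean log2 ratio, from the variances within groups. The common biological coefficient of variation came to 9.65%. Coding sequences were aligned with mafft 7.526. Depth limits the controls most. The members and lists were chosen with earlier results of these data known.

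Named are all 6 members, all other trypsinogen-like genes, trypsin-control genes and acinar regulators, and of the zymogens the 4 with the smallest p and the 2 with the largest mean. Also named are Cela2a, for its overlap with Ctrc, and the 5 genes outside these lists most like the trypsinogen sum. Libraries of 1 group differed beyond sampling noise (chi-square divided by its degrees of freedom, 6.71 to 16.1), which separate libraries of 1 sample could also show. Each was counted as 1 sample, as labelled. The alternatives were other scalings, filters and tests, the replicate block, GC and length trends, each library left out, and, chosen after seeing the data, processed pseudogenes left out.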

Additional observations from a re-analysis of the deposited data

How the results depend on the processing

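Depth, near copies and 3 libraries a group limit these values. Over 18 alternatives Prss2, Try4 and Try5 kept their direction and call in 18, Prss1 in 10 and Try10 in 11, and Prss3 passed under DESeq2 (adjusted p = 0.00155) and without control replicate 3. The number of members higher was 3 with no filter and with GC and length trends over all genes removed, and 3 to 6 with a library left out. Fitted on unique-sequence genes, the same trends gave 1.49 for Prss1, 1.54 for Prss3 and 0.92 for Try10, and the cause was not tested. Calls over all genes were 50.9% higher as reported, 40.2% with library totals alone, 41.3% with trends over all genes and 57.5% without a filter, which moved the median log2 fold change by 0.146. The share of counts differed by 1.12 percentage points (1.07 to 1.20 over its alternatives).

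With trends over all genes removed, log2 fold changes reversed to -0.15 (Prss1), -0.089 (Prss3), -0.64 (Try10), -0.96 (1810009J06Rik), -1.81 (Spink1), -0.93 (Cst3) and -0.42 (Ctrb1). There, 2 trypsinogen-like genes were higher and 2 lower, 1 trypsin-control gene was higher and 3 lower, 8 zymogens were higher and 3 lower, and 2 acinar regulators were higher. With trends fitted on unique-sequence genes, 1 trypsin-control gene was lower, 2 regulators were higher and 1 lower, and Ptf1a was 0.062. With library totals alone, 1 trypsin-control gene was lower, Cst3 was -0.072 and Xbp1 -0.055. Leaving out a library gave 3 to 5 trypsinogen-like genes higher, 0 to 1 trypsin-control genes lower and 1 to 2 regulators higher. Over the same fits Cst3 ranged from -0.030 to 0.096 (-0.011 without AMI-5 replicate 1), Ptf1a from -0.22 to 0.019 and Xbp1 from -0.060 to 0.097.

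Samples with the same replicate number did not deviate together (correlations of -0.0579, -0.0377 and -0.048). No pairing by number was seen, but samples paired without a shared deviation would look the same. With the replicate block 3 members and 3 trypsinogen-like genes were called higher. No sample correlated best with its own number.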
